A study of Polyandrocarpa zorritensis and Clavelina lepadiformis with 36 samples.

Results

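The expression of 37 ortholog pairs of the Wnt, TGF-β/BMP, Notch and FGF signaling pathways was followed through the asexual life cycle of the tunicates *Polyandrocarpa zorritensis* and *Clavelina lepadiformis*. The pairs were taken from a table of 4424 reciprocal best hits between the transcriptomes of the 2 species. Their human protein names matched the names of these families. The table holds pairs that the authors called up or down in some stage. Members and the shares of all pairs given below thus come from a table chosen by stage differences, not from all transcripts. A pair is written here as the *P. zorritensis* name followed by the *C. lepadiformis* name where these differ (WNT5B/WNT5A), and as 1 name where they are the same. Of the 37 pairs, 14 carried Wnt pathway names, 9 TGF-β/BMP names, 6 Notch names and 7 FGF names. The remaining pair, WNK3, was taken in by its spelling and encodes a kinase of another family. By role the pairs held 12 ligands, 11 receptors, 3 secreted antagonists, 4 intracellular components, 5 transcription factors and 1 intracellular FGF homologue. The names are best hits to human proteins: 22 pairs had the same name in both species, 13 had different human names, and the BMP4 and FGF5 pairs were named from *Ciona* in *C. lepadiformis*.

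RNA was sequenced from 36 samples, 18 of each species, at 5 stages: the adult zooid, the stolon that extends from it, the pre-bud formed along the stolon, the dormant form and the germinating form. The pre-bud is called budding nest in *P. zorritensis* and budding chamber in *C. lepadiformis*, and the dormant form spherule and winter bud, respectively. Each stage had 3 samples and germination 6, of which 3 were kept at 18 °C and 3 at 24 °C for 48 h, and each sample pooled the tissue of several specimens. Dormant spherules of *P. zorritensis* were frozen on collection in the field, whereas its zooids, stolons and pre-buds were grown in the laboratory from material of the same rope. Its germinating samples had only the 48 h of germination. Dormancy and field origin thus cannot be told apart in this species. All *C. lepadiformis* material came from the same laboratory colony, so its samples give the variation within that colony.

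These pathways carry signals between cells during development and regeneration of animals. Wnt ligands bind Frizzled receptors with LRP5/6 co-receptors and, through Dishevelled and the Axin and APC destruction complex, set the level of β-catenin, which acts with TCF/LEF factors. TGF-β and BMP ligands act through pairs of serine/threonine kinase receptors and SMAD proteins, Notch ligands on neighboring cells release the Notch intracellular domain that turns on HES genes, and FGF ligands activate receptor tyrosine kinases. In colonial tunicates such signals have been studied as regulators of budding and of whole-body regeneration.

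The deposited values were TPM scaled between libraries and given as 1 mean per stage and species. No replicate values accompanied the means analysed here, so no value below has an error and no difference was tested. The read depth of single samples was unknown. A pair is said to have changed, risen or fallen between 2 stages when log2(mean + 1) differed by at least 1, that is 2-fold on that scale, and the higher mean was at least 5. Fold differences given for single genes are ratios of the deposited means, and calls and highest or lowest stages refer to the means as deposited unless another scaling is named. Stage means listed with spherules are of *P. zorritensis* and those listed with winter buds of *C. lepadiformis*. In whole tissue fewer cells of a type and less RNA per cell cannot be told apart. The 37 pairs were expressed at modest levels. Their median of the mean over the 5 stages was 5.17 for *P. zorritensis* and 7.95 for *C. lepadiformis*, compared with 7.75 and 10.98 over all pairs. In *P. zorritensis* 8 pairs (WNT2, WNT5B, WNT7B, AXIN1, JAG1, FGF5, FGFR1/FGFR2 and FGF14) and in *C. lepadiformis* 3 pairs (WNT7B, HES1-b and FGF9) stayed below 5 at every stage and therefore could not be counted as changed.

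The zooid was the stage of highest expression for most of these genes. It had the highest mean for 21 of the 37 pairs in *P. zorritensis*, compared with 37.7% of all pairs, and for 21 in *C. lepadiformis*, compared with 45.5%. For 13 pairs it was highest in both species, compared with 26.8% of all pairs: WNT7B, FZD3, FZD4, LRP6, SFRP2, AXIN1, BMP3, BMP4, DLL1/DLL4, NOTCH1, HES1-b, FGF5 and FGF14/FGF12. The stolon was highest for 8 and 7 pairs (16.5% and 16.3% of all pairs, in *P. zorritensis* and *C. lepadiformis*, respectively), germinating tissue for 3 and 5 (18.4% and 16.4%) and the pre-bud for 2 and 2 (10.4% and 14.1%). The dormant form was highest for GDF8, FGF9 and FGFR3/FGFR1 in *P. zorritensis* (16.9% of all pairs) and for TGFB2/TGFB3 and FGF9 in *C. lepadiformis* (7.64%). FGF9 was the member with its highest mean in the dormant form of both species, as 1.85% of all pairs had, but with every stage rescaled to the same sum its highest *P. zorritensis* stage was the pre-bud. That rescaling left 25 pairs highest in *P. zorritensis* zooids, compared with 58.6% of all pairs, and GDF8 highest in spherules; in *C. lepadiformis* 21 pairs were highest in zooids, compared with 51% of all pairs, and TGFB2/TGFB3 became highest in stolons. In total 15 of the 37 pairs had the same highest stage in both species, close to the 39.3% of all pairs. As deposited, the lowest mean was that of spherules for 15 pairs of *P. zorritensis* (32% of all pairs) and that of winter buds for 7 of *C. lepadiformis* (14.6%), whereas germinating tissue was lowest for 4 pairs of *P. zorritensis* (10.1%) and 11 of *C. lepadiformis* (31.3%). With equal stage sums spherules were lowest for 24 pairs (65% of all pairs), winter buds for 3 (5.67%) and germinating tissue for 3 and 18 (6.62% and 63%).

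**Figure D1:**
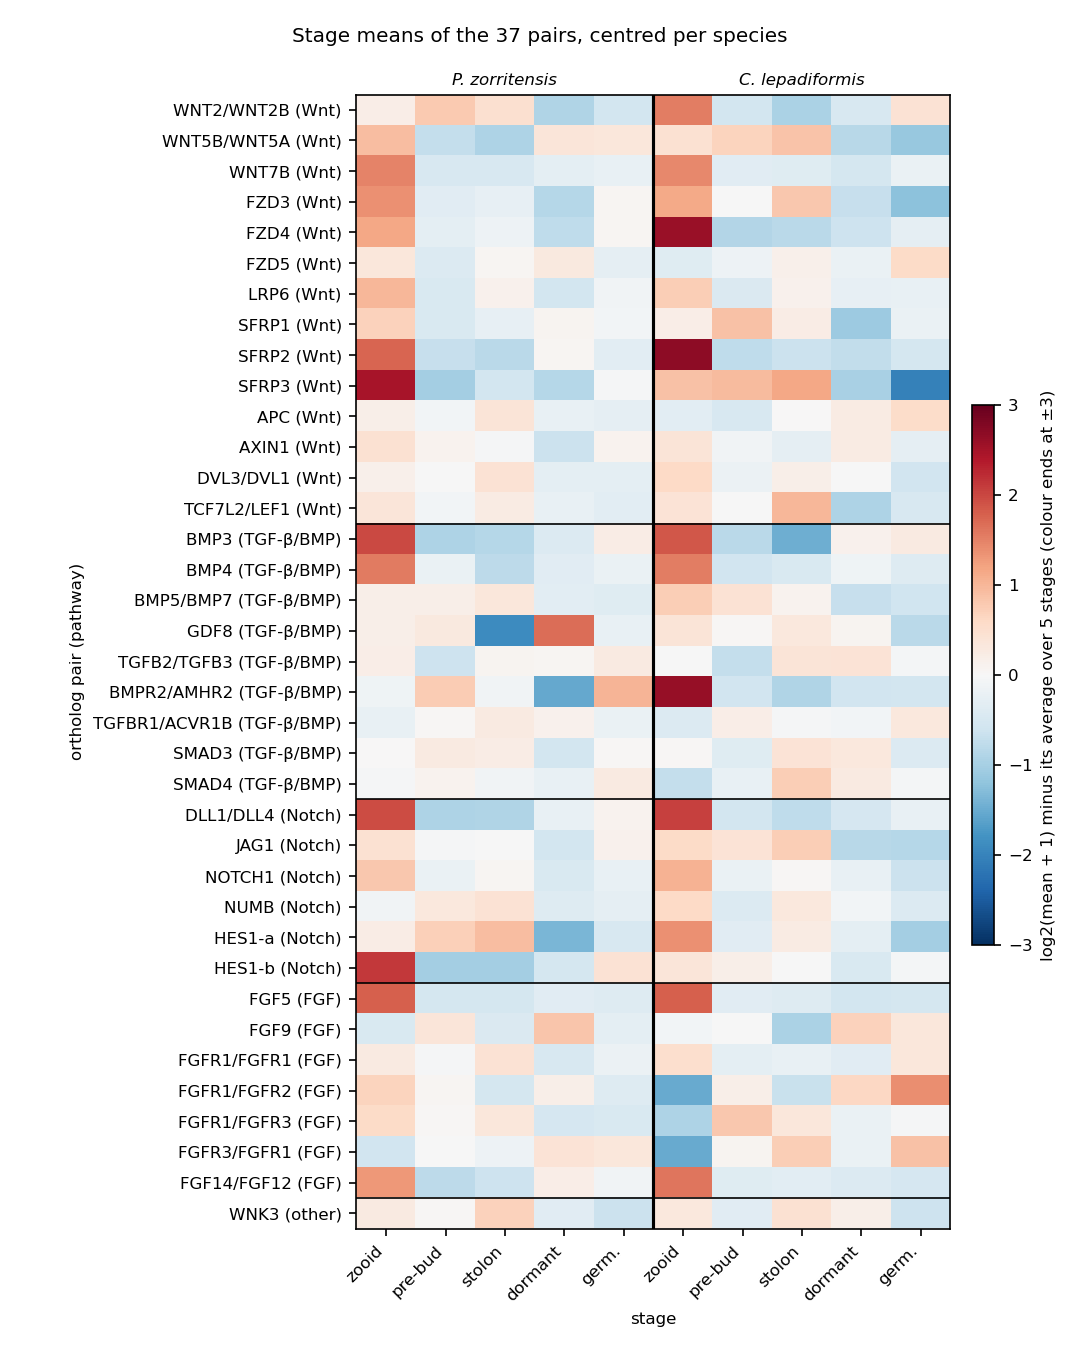
Stage means of the 37 ortholog pairs (rows, grouped by pathway) at 5 stages of *P. zorritensis* (left) and *C. lepadiformis* (right). Color shows log2(mean + 1) minus the average over the 5 stages of the same species, with red above and blue below that average; the zooid columns hold the highest value for 21 pairs in each species.

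A few signaling genes were close to restricted to the zooid. WNT7B, SFRP2, DLL1/DLL4 and FGF5 had a zooid mean at least 5 times that of every other stage in both species, as did 9.92% of all pairs, so that such restriction was about as common among the members as in the table. SFRP3 and BMP3 shared this pattern in *P. zorritensis*, where 14.4% of all pairs had it, and FZD4 and BMPR2/AMHR2 shared it in *C. lepadiformis*, where 14.7% had it. The zooid is the stage with a branchial basket, a gut and body muscle, and most marker genes of these tissues had their highest mean there. All 10 ciliary markers found among the pairs were highest in the zooid in both species, with summed means of 312 in *P. zorritensis* zooids and 2.11 to 10.7 at the other stages, and of 390 in *C. lepadiformis* zooids and 3.46 to 5.14 elsewhere. Of 7 digestive markers, 5 were highest in the zooid in each species. Their summed means were 692 in *P. zorritensis* zooids and 1006 to 8989 at the other stages, and 2874 in *C. lepadiformis* zooids and 70.4 to 231 elsewhere. The *P. zorritensis* sums outside the zooid were nearly all AMYP, a pancreatic amylase name, at 21.1 in zooids and 8982 in spherules. Without AMYP the other 6 markers summed to 671 in *P. zorritensis* zooids and 4.65 to 25.9 at the other stages. Of 5 muscle markers, 5 peaked in zooids of *P. zorritensis* and 4 in those of *C. lepadiformis*, and no marker of the 3 lists was listed at 0 at all 4 other stages. The part of these tissues in the zooid values was not tested.

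Many members were lower in the dormant form than in the zooid. In *P. zorritensis* 13 of the 37 pairs were lower in spherules and 2 were higher, whereas 26.8% of all pairs were lower and 10.4% higher, and 28 of the 37 passed the minimum of 5. In *C. lepadiformis* 18 pairs were lower in winter buds and 2 higher, compared with 24.7% and 9.4% of all pairs, and 32 passed the minimum. Of the members lower in spherules, only NOTCH1, HES1-a and FGFR1/FGFR3 had a spherule mean of at least 5. Of the members lower in winter buds, only WNT5A, SFRP1, LEF1, BMP4, BMP7, NOTCH1 and HES1-a had a winter bud mean of at least 5. The others passed the minimum through the zooid alone and could only be called lower. Of the members that were higher, only GDF8 had a zooid mean of at least 5. The median difference of log2(mean + 1) over the 37 pairs was -0.99 for spherules and -1.26 for winter buds. Over all pairs it was -0.51 and -0.35, and over all transcripts of each species -0.20 and 0, respectively. 10 pairs fell in both species, compared with 14.6% of all pairs: FZD3, FZD4, SFRP2, SFRP3, BMP3, BMP4, BMPR2/AMHR2, DLL1/DLL4, NOTCH1 and HES1-a. Of these 10, only NOTCH1 and HES1-a had a mean of at least 5 in the dormant form of both species. With a median log2 ratio of 0 SFRP2 lost its *P. zorritensis* call, as its zooid mean of 4.86 was below the minimum. The size of the *P. zorritensis* count depended on scaling. The deposited spherule values summed to 1570747, and those of the other stages to between 687868 and 1039981. With every stage rescaled to the same sum, which shifted every spherule value by -1.19 on the log2 scale relative to zooids, 30 of the 37 pairs were lower and 0 higher, as were 62.4% and 2.44% of all pairs.

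**Figure D2:**
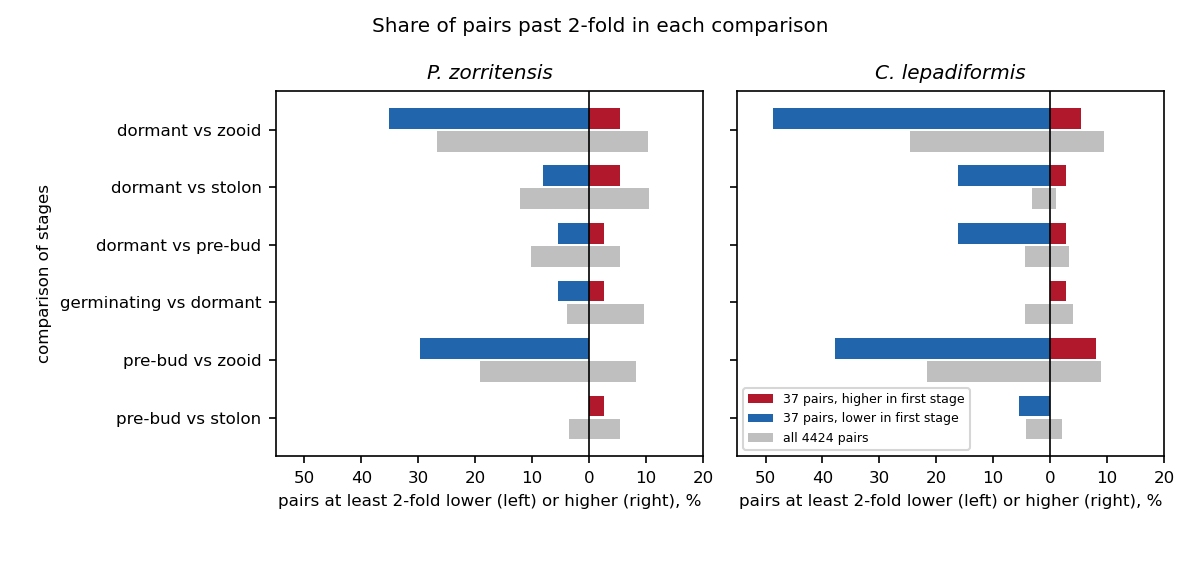
Percentage of pairs at least 2-fold lower (bars to the left) or higher (bars to the right) in the first of 2 stages on the log2(mean + 1) scale, for the 37 signaling pairs (colored) and all 4424 pairs (grey), in *P. zorritensis* (left) and *C. lepadiformis* (right). In *C. lepadiformis* 6 of the 37 signaling pairs were lower in the dormant form than in stolons and 6 lower than in pre-buds, where 3.23% and 4.41% of all pairs were.

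Of the Wnt ligands, 3 pairs were present. WNT2/WNT2B, a ligand that acts through β-catenin in vertebrates, averaged 2.38 in zooids, 4.09 in pre-buds, 3.14 in stolons, 0.575 in spherules and 1.03 in germinating tissue. In *C. lepadiformis* WNT2B averaged 5.22 in zooids, 0.454 in pre-buds, 0.099 in stolons, 0.532 in winter buds and 1.9 in germinating tissue. WNT2B was thus 9.8-fold higher in *C. lepadiformis* zooids than in winter buds, whereas WNT2 in *P. zorritensis* was highest in pre-buds and did not reach the minimum. WNT5B/WNT5A, a ligand best known for β-catenin-independent signaling, had low means of 2.82 in zooids, 0.243 in pre-buds, 0.072 in stolons, 1.58 in spherules and 1.58 in germinating tissue. Its *C. lepadiformis* partner WNT5A averaged 18.8 in zooids, 21.8 in pre-buds, 25.2 in stolons, 7.06 in winter buds and 5.59 in germinating tissue. WNT5A thus separated zooids, pre-buds and stolons from winter buds and germinating tissue, and was 3.56-fold lower in winter buds than in stolons. WNT7B, another ligand of the β-catenin branch, was listed at 2.95 in zooids, 0 in pre-buds, 0 in stolons, 0.143 in spherules and 0.196 in germinating tissue. The *C. lepadiformis* WNT7B values were 3.84 in zooids, 0.406 in pre-buds, 0.377 in stolons, 0.228 in winter buds and 0.548 in germinating tissue. WNT7B was close to absent outside the zooid in both species and stayed below the minimum.

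The Wnt receptors did not move as a group. FZD3, a Frizzled receptor with roles in planar polarity and axon guidance in vertebrates, averaged 6.98 in zooids, 1.46 in pre-buds, 1.64 in stolons, 0.72 in spherules and 2.26 in germinating tissue. In *C. lepadiformis* FZD3 averaged 7.7 in zooids, 2.92 in pre-buds, 5.97 in stolons, 1.43 in winter buds and 0.673 in germinating tissue. FZD3 fell in the dormant form of both species relative to zooids, by 9.7-fold and 5.38-fold, respectively, and in *C. lepadiformis* also relative to stolons, by 4.17-fold. FZD4, a receptor of Norrin and Wnt ligands in vertebrates, had *P. zorritensis* means of 5.27 in zooids, 1.27 in pre-buds, 1.5 in stolons, 0.642 in spherules and 1.92 in germinating tissue. Its *C. lepadiformis* means were 11.2 in zooids, 0.112 in pre-buds, 0.16 in stolons, 0.33 in winter buds and 0.685 in germinating tissue. FZD4 was 8.21-fold and 34.1-fold lower in spherules and winter buds than in zooids. FZD5, which acts in eye and gut development in vertebrates, averaged 6.69 in zooids, 3.59 in pre-buds, 5.33 in stolons, 6.4 in spherules and 4.01 in germinating tissue. The *C. lepadiformis* FZD5 means were 10.3 in zooids, 12.2 in pre-buds, 15.2 in stolons, 11.6 in winter buds and 20.7 in germinating tissue. As deposited, FZD5 passed the threshold in no dormant comparison of either species, and its zooid mean was the highest of the 5 stages in *P. zorritensis* but the lowest in *C. lepadiformis*. FZD5 was lower in spherules than in zooids with equal stage sums, at 4.08 and 9.72, and with a median log2 ratio of 0 spherules were its highest *P. zorritensis* stage, at 6.83 and 6.40. LRP6, the co-receptor of the β-catenin branch, averaged 10.3 in zooids, 3.14 in pre-buds, 5.2 in stolons, 2.92 in spherules and 4.27 in germinating tissue. In *C. lepadiformis* the LRP6 means were 10.1 in zooids, 3.91 in pre-buds, 6.18 in stolons, 4.6 in winter buds and 4.69 in germinating tissue. LRP6 was highest in zooids of both species and fell 3.55-fold in spherules, whereas the 2.19-fold ratio between *C. lepadiformis* zooids and winter buds did not pass the threshold on the log2(mean + 1) scale except with equal stage sums.

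Secreted Frizzled-related proteins bind Wnt ligands outside the cell, and the 3 pairs of this family differed in their profiles. SFRP1 was the most abundant Wnt pathway member in *P. zorritensis*, with 32.6 in zooids, 14.3 in pre-buds, 16.7 in stolons, 21.3 in spherules and 18.7 in germinating tissue. In *C. lepadiformis* SFRP1 averaged 21.3 in zooids, 34.9 in pre-buds, 21.5 in stolons, 8.14 in winter buds and 15.9 in germinating tissue. SFRP1 was lowest in pre-buds in *P. zorritensis* (in spherules with equal stage sums) and highest in pre-buds in *C. lepadiformis*, where it fell 4.29-fold between pre-buds and winter buds. SFRP2 averaged 5.08 in zooids, 0.122 in pre-buds, 0.026 in stolons, 0.877 in spherules and 0.449 in germinating tissue. The *C. lepadiformis* values of SFRP2 were 9.82 in zooids, 0 in pre-buds, 0.086 in stolons, 0.018 in winter buds and 0.171 in germinating tissue. SFRP2 was a zooid gene in both species. SFRP3 had means of 13.2 in zooids, 0.271 in pre-buds, 0.763 in stolons, 0.433 in spherules and 1.51 in germinating tissue. In *C. lepadiformis* SFRP3 averaged 11.5 in zooids, 12.0 in pre-buds, 14.2 in stolons, 2.47 in winter buds and 0.66 in germinating tissue. SFRP3 was restricted to the zooid in *P. zorritensis*, whereas in *C. lepadiformis* zooids, pre-buds and stolons had similar means and winter buds were 4.65-fold, 4.85-fold and 5.72-fold lower, respectively.

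The intracellular Wnt components were APC, AXIN1 and DVL3/DVL1. APC, a scaffold of the β-catenin destruction complex, lay between 2.99 in germinating tissue and 5.23 in stolons of *P. zorritensis*, and between 4.73 in pre-buds and 10.6 in germinating tissue of *C. lepadiformis*. AXIN1, the limiting scaffold of that complex, ranged from 1.40 in spherules to 4.12 in zooids and from 5.61 in stolons to 9.26 in zooids, respectively. DVL3/DVL1, a Dishevelled protein that relays the signal from Frizzled receptors, ranged from 4.55 in spherules to 8.10 in stolons of *P. zorritensis*. In *C. lepadiformis* it ranged from 4.76 in germinating tissue to 12.1 in zooids. As deposited, none of the 3 changed between the dormant form and zooids, stolons or pre-buds. AXIN1 was 2.94-fold lower in spherules than in zooids but stayed below the minimum in *P. zorritensis* and could not be counted. All 3 were, with equal stage sums, lower in *P. zorritensis* spherules than in zooids, and APC and DVL3/DVL1 also lower than in stolons. TCF7L2/LEF1, the nuclear partner of β-catenin, averaged 11.8 in zooids, 8.41 in pre-buds, 10.8 in stolons, 7.44 in spherules and 6.92 in germinating tissue. Its *C. lepadiformis* partner LEF1 averaged 18.9 in zooids, 13.8 in pre-buds, 28.7 in stolons, 6.93 in winter buds and 9.76 in germinating tissue. LEF1 was 4.14-fold lower in winter buds than in stolons and 2.74-fold lower than in zooids, and TCF7L2 in *P. zorritensis* spherules lay within 1.58-fold of zooids as deposited. TCF7L2 averaged 17.1 in zooids, 13.4 in stolons and 4.74 in spherules with equal stage sums, so that the pair was lower in the dormant form than in zooids and stolons in both species.

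**Figure D3:**
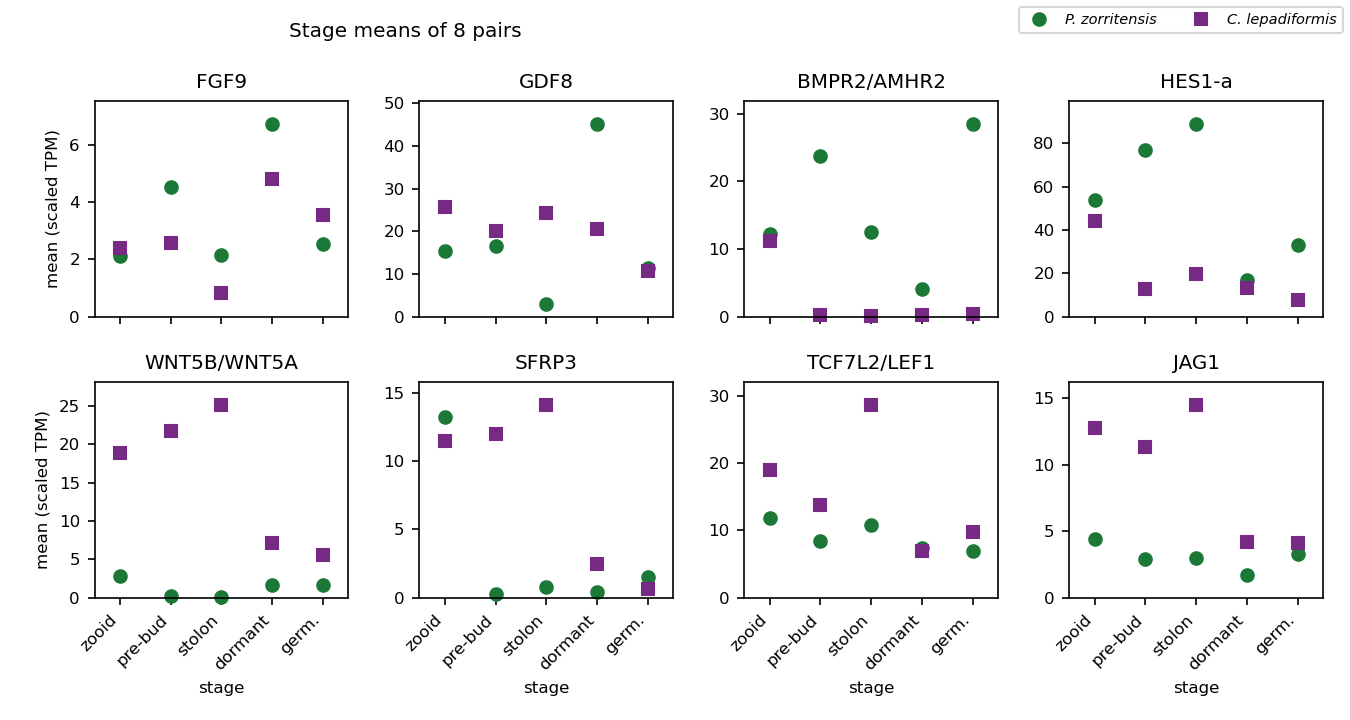
Stage means (TPM as scaled and averaged by the authors, linear axes from 0) of 8 pairs in *P. zorritensis* (circles) and *C. lepadiformis* (squares), each symbol being the mean of 1 stage. FGF9 peaked in the dormant form of both species at 6.72 and 4.8 as deposited (with equal stage sums the *P. zorritensis* peak was the pre-bud), GDF8 peaked at 45.1 in *P. zorritensis* spherules, and WNT5A, SFRP3, LEF1 and JAG1 of *C. lepadiformis* were lower in winter buds and germinating tissue than in zooids, pre-buds and stolons.

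Among the TGF-β superfamily ligands, BMP3 and BMP4 were zooid genes in both species and GDF8 differed between them. BMP3, an atypical BMP that opposes other BMPs in vertebrate bone, averaged 6.73 in zooids, 0.04 in pre-buds, 0.082 in stolons, 0.473 in spherules and 1.28 in germinating tissue. In *C. lepadiformis* BMP3 averaged 10.3 in zooids, 0.768 in pre-buds, 0.122 in stolons, 2.41 in winter buds and 2.71 in germinating tissue. The zooid mean of BMP3 exceeded that of the dormant form 14.2-fold and 4.29-fold, respectively. BMP4, a dorsoventral patterning ligand, averaged 11.5 in zooids, 2.71 in pre-buds, 1.47 in stolons, 2.39 in spherules and 2.73 in germinating tissue. The *C. lepadiformis* means of BMP4 were 40.2 in zooids, 8.6 in pre-buds, 9.48 in stolons, 12.0 in winter buds and 10.0 in germinating tissue. BMP4 was 4.83-fold and 3.35-fold lower in spherules and winter buds than in zooids. BMP5/BMP7, a ligand of the BMP5 to BMP8 group, averaged 11.3 in zooids, 11.3 in pre-buds, 12.9 in stolons, 7.83 in spherules and 7.55 in germinating tissue. In *C. lepadiformis* BMP7 averaged 34.2 in zooids, 27.3 in pre-buds, 21.8 in stolons, 12.2 in winter buds and 12.9 in germinating tissue. BMP7 was 2.81-fold lower in winter buds than in zooids and 2.25-fold lower than in pre-buds, the latter a call lost when isoforms were summed (39.9 in pre-buds and 20.7 in winter buds), and BMP5 in *P. zorritensis* passed no threshold as deposited. BMP5 was, with equal stage sums, lower in spherules, at 4.99, than in zooids, pre-buds and stolons, at 16.4, 12.2 and 16.0.

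GDF8, known as myostatin, restrains muscle growth in vertebrates. It averaged 15.3 in zooids, 16.7 in pre-buds, 2.93 in stolons, 45.1 in spherules and 11.4 in germinating tissue. In *C. lepadiformis* GDF8 averaged 25.6 in zooids, 20.1 in pre-buds, 24.2 in stolons, 20.5 in winter buds and 10.7 in germinating tissue. GDF8 was therefore 15.4-fold higher in *P. zorritensis* spherules than in stolons and 2.71-fold higher than in pre-buds, and it fell 3.96-fold between spherules and germinating tissue. With equal stage sums GDF8 kept its highest mean in spherules, at 28.7 compared with 22.3 in zooids and 17.9 in pre-buds, but passed the threshold against stolons and germinating tissue and not against these. In *C. lepadiformis* the winter bud mean lay within 1.25-fold of those of zooids, pre-buds and stolons. The summed means of the 5 muscle markers in *P. zorritensis* were 6864 in zooids, 3.36 in pre-buds, 1.37 in stolons, 559 in spherules and 591 in germinating tissue. The part of muscle in the GDF8 values was not tested. TGFB2/TGFB3, a TGF-β ligand, averaged 9.46 in zooids, 4.96 in pre-buds, 8.7 in stolons, 8.59 in spherules and 10.1 in germinating tissue. The *C. lepadiformis* partner TGFB3 averaged 16.9 in zooids, 10.1 in pre-buds, 22.7 in stolons, 22.9 in winter buds and 16.4 in germinating tissue. TGFB3 was lowest in pre-buds and 2.27-fold higher in winter buds, whereas the *P. zorritensis* means of 4.96 and 8.59 did not pass the threshold.

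Of the receptor pairs, BMPR2/AMHR2 was the more variable. BMPR2 and AMHR2 are type II receptors, of BMPs and of anti-Müllerian hormone in vertebrates. In *P. zorritensis* BMPR2 averaged 12.2 in zooids, 23.7 in pre-buds, 12.6 in stolons, 4.05 in spherules and 28.5 in germinating tissue. The *C. lepadiformis* partner AMHR2 averaged 11.1 in zooids, 0.334 in pre-buds, 0.067 in stolons, 0.33 in winter buds and 0.357 in germinating tissue. BMPR2 was lowest in spherules, 5.84-fold below pre-buds and 3.11-fold below stolons, and rose 7.02-fold between spherules and germinating tissue. AMHR2 by contrast was concentrated in *C. lepadiformis* zooids, at 31.2-fold or more over each of the 4 other stages. TGFBR1/ACVR1B, type I receptors of TGF-β and activin, averaged 22.2 in zooids, 26.8 in pre-buds, 32.0 in stolons, 28.7 in spherules and 22.7 in germinating tissue. In *C. lepadiformis* ACVR1B averaged 29.2 in zooids, 45.2 in pre-buds, 38.1 in stolons, 37.1 in winter buds and 48.5 in germinating tissue. As deposited, neither passed the threshold in the comparisons made, and the zooid mean was the lowest in both species. TGFBR1 with equal stage sums was lowest in spherules and lower there than in stolons, at 18.3 and 39.7. SMAD3, the transcription factor downstream of TGF-β and activin receptors, ranged from 3.53 in spherules to 6.97 in pre-buds and from 8.89 in germinating tissue to 16.6 in stolons, respectively. SMAD4, the SMAD shared by all branches, averaged 33.3 in zooids, 37.2 in pre-buds, 31.7 in stolons, 29.4 in spherules and 41.4 in germinating tissue. Both SMAD3 and SMAD4 were, with equal stage sums, lower in spherules than in zooids, pre-buds and stolons. SMAD4 then averaged 18.7 in spherules, 48.4 in zooids, 40.1 in pre-buds and 39.3 in stolons, and zooids were its highest stage. In *C. lepadiformis* the SMAD4 transcript of the pair averaged 1.51 in zooids, 2.53 in pre-buds, 5.88 in stolons, 4.02 in winter buds and 3.0 in germinating tissue, and it held 15.1% of the summed expression of the 3 isoforms of its gene.

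The Notch ligands differed in the stages outside the zooid. DLL1/DLL4, a Delta ligand, averaged 6.56 in zooids, 0.018 in pre-buds, 0.035 in stolons, 0.651 in spherules and 1.07 in germinating tissue. In *C. lepadiformis* DLL4 averaged 8.21 in zooids, 0.502 in pre-buds, 0.305 in stolons, 0.569 in winter buds and 0.887 in germinating tissue. The Delta pair was 10.1-fold and 14.4-fold higher in zooids than in the dormant form. JAG1, a Jagged ligand, had means of 4.44 in zooids, 2.89 in pre-buds, 2.97 in stolons, 1.73 in spherules and 3.31 in germinating tissue. The *C. lepadiformis* JAG1 means were 12.8 in zooids, 11.3 in pre-buds, 14.5 in stolons, 4.2 in winter buds and 4.1 in germinating tissue. JAG1 fell 3.45-fold in winter buds relative to stolons, 2.70-fold relative to pre-buds and 3.04-fold relative to zooids, and was lowest in spherules in *P. zorritensis* without reaching the minimum. With equal stage sums JAG1 was lower in spherules, at 1.10, than in zooids, at 6.45, so that it was lower than in zooids in both species.

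NOTCH1, the receptor of both ligand types, averaged 14.7 in zooids, 6.7 in pre-buds, 8.26 in stolons, 5.48 in spherules and 6.66 in germinating tissue. In *C. lepadiformis* NOTCH1 averaged 26.6 in zooids, 10.6 in pre-buds, 12.6 in stolons, 10.6 in winter buds and 7.53 in germinating tissue. NOTCH1 was highest in zooids and lower in the dormant form by 2.68-fold and 2.52-fold. NUMB, an intracellular inhibitor of Notch, averaged 9.36 in zooids, 12.8 in pre-buds, 13.8 in stolons, 7.49 in spherules and 8.14 in germinating tissue. In *C. lepadiformis* NUMB averaged 8.29 in zooids, 3.61 in pre-buds, 6.64 in stolons, 4.85 in winter buds and 3.64 in germinating tissue. NUMB was lowest in spherules and in pre-buds, respectively, and as deposited changed in neither species between the dormant form and another stage. NUMB was, with equal stage sums, lower in spherules, at 4.77, than in zooids, pre-buds and stolons, at 13.6, 13.8 and 17.2. Its lowest stage was germinating tissue in *C. lepadiformis* with equal stage sums and in *P. zorritensis* with a median log2 ratio of 0. HES1, a transcriptional repressor induced by Notch, was represented by 2 pairs, called here HES1-a and HES1-b. HES1-a was the most abundant of the 37 members in *P. zorritensis*, with 53.9 in zooids, 76.7 in pre-buds, 88.9 in stolons, 17.1 in spherules and 33.0 in germinating tissue. In *C. lepadiformis* HES1-a averaged 44.4 in zooids, 12.9 in pre-buds, 19.7 in stolons, 13.4 in winter buds and 7.7 in germinating tissue. HES1-a was lower in spherules than in zooids, pre-buds and stolons by 3.15-fold, 4.47-fold and 5.19-fold. In *C. lepadiformis* it was lower in winter buds than in zooids by 3.31-fold, and similar in winter buds and pre-buds. HES1-b averaged 7.77 in zooids, 0 in pre-buds, 0 in stolons, 0.393 in spherules and 1.73 in germinating tissue. In *C. lepadiformis* HES1-b averaged 2.65 in zooids, 2.17 in pre-buds, 1.81 in stolons, 1.04 in winter buds and 1.7 in germinating tissue, which was below the minimum throughout. Reads of near-identical copies can be divided between transcripts by the counting, and this was not assessed for the HES1 or FGFR pairs.

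FGF9, as deposited, had its highest mean in the dormant form of both species. It belongs to the secreted FGF9, FGF16 and FGF20 group, which acts in gonad, lung and inner ear development in vertebrates, and averaged 2.12 in zooids, 4.5 in pre-buds, 2.17 in stolons, 6.72 in spherules and 2.54 in germinating tissue. In *C. lepadiformis* FGF9 averaged 2.39 in zooids, 2.55 in pre-buds, 0.835 in stolons, 4.8 in winter buds and 3.55 in germinating tissue. In *P. zorritensis* FGF9 was 3.18-fold higher in spherules than in zooids and 3.10-fold higher than in stolons, and fell 2.64-fold on germination; with equal stage sums these differences kept their direction but did not pass the threshold, at 3.07 in zooids, 2.69 in stolons, 4.28 in spherules and 2.44 in germinating tissue, and pre-buds were highest at 4.85. In *C. lepadiformis* the corresponding ratios were 2.01 and 5.74, but the highest mean was 4.8, below the minimum of 5. The winter bud mean was 5.94 with equal stage sums and passed the threshold against stolons. FGF5, a ligand that ends hair growth in mammals, averaged 3.96 in zooids, 0 in pre-buds, 0 in stolons, 0.135 in spherules and 0.1 in germinating tissue. In *C. lepadiformis* the FGF5 pair averaged 5.37 in zooids, 0.436 in pre-buds, 0.41 in stolons, 0.254 in winter buds and 0.27 in germinating tissue. FGF5 was close to absent outside zooids, at 21.1-fold less in winter buds.

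The 4 FGF receptor pairs did not share a profile. FGFR1/FGFR1 averaged 32.2 in zooids, 26.1 in pre-buds, 36.2 in stolons, 18.8 in spherules and 23.7 in germinating tissue. In *C. lepadiformis* it averaged 23.9 in zooids, 13.4 in pre-buds, 14.0 in stolons, 12.9 in winter buds and 21.0 in germinating tissue, and it had its lowest mean in the dormant form of both species. The lowest *C. lepadiformis* mean of FGFR1/FGFR1 with equal stage sums was that of pre-buds, at 15.8 compared with 15.9 in winter buds. Spherules, at 12.0, were then lower than zooids, pre-buds and stolons of *P. zorritensis*, at 46.8, 28.1 and 44.9. FGFR1/FGFR2 averaged 3.94 in zooids, 2.26 in pre-buds, 1.16 in stolons, 2.54 in spherules and 1.38 in germinating tissue. The *C. lepadiformis* partner FGFR2 averaged 2.7 in zooids, 10.9 in pre-buds, 5.6 in stolons, 15.2 in winter buds and 26.7 in germinating tissue. FGFR2 was lowest in *C. lepadiformis* zooids, 5.62-fold higher in winter buds and 2.71-fold higher in winter buds than in stolons. FGFR1/FGFR3 averaged 15.9 in zooids, 10.7 in pre-buds, 13.3 in stolons, 7.05 in spherules and 7.36 in germinating tissue. In *C. lepadiformis* FGFR3 averaged 2.42 in zooids, 10.4 in pre-buds, 7.12 in stolons, 4.6 in winter buds and 5.34 in germinating tissue. It was lower in winter buds than in pre-buds by 2.26-fold, and in *P. zorritensis* lower in spherules than in zooids by 2.25-fold. The latter call was lost with a median log2 ratio of 0 and when the isoforms of the gene were summed, with 26.7 in zooids and 19.8 in spherules. The *C. lepadiformis* call was lost with equal stage sums, at 12.3 in pre-buds and 5.70 in winter buds. FGFR3/FGFR1 averaged 8.23 in zooids, 12.8 in pre-buds, 11.5 in stolons, 17.2 in spherules and 16.5 in germinating tissue. In *C. lepadiformis* this pair averaged 3.47 in zooids, 12.5 in pre-buds, 20.3 in stolons, 10.0 in winter buds and 22.4 in germinating tissue. Its zooid mean was the lowest in both species (with equal stage sums *P. zorritensis* spherules were lowest, at 11.0 compared with 12.0 in zooids). In *C. lepadiformis* it was 2.89-fold higher in winter buds than in zooids and rose a further 2.24-fold on germination, a step that did not pass the threshold with equal stage sums. FGF14/FGF12, an intracellular homologue that binds sodium channels and is not secreted, averaged 4.22 in zooids, 0.234 in pre-buds, 0.377 in stolons, 1.45 in spherules and 0.966 in germinating tissue. In *C. lepadiformis* FGF12 averaged 15.4 in zooids, 3.23 in pre-buds, 3.35 in stolons, 3.1 in winter buds and 2.82 in germinating tissue, and the zooid was highest in both species. Summed over the 2 isoforms of its gene, *P. zorritensis* FGF14 averaged 12.5 in zooids, 0.486 in pre-buds and 5.27 in spherules. It then passed the minimum and was lower in pre-buds and spherules than in zooids, as FGF12 was in pre-buds and winter buds. WNK3, the kinase outside these families, averaged 17.6 in zooids, 14.7 in pre-buds, 23.9 in stolons, 11.2 in spherules and 8.89 in germinating tissue. In *C. lepadiformis* WNK3 averaged 10.8 in zooids, 6.44 in pre-buds, 12.0 in stolons, 9.65 in winter buds and 5.18 in germinating tissue, and the stolon was highest in both species.

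The dormant form was also compared with the stolon and pre-bud, the tissues from which it arises. In *P. zorritensis* GDF8 and FGF9 were higher in spherules than in stolons, and BMPR2, HES1-a and WNK3 lower, at 10.6% and 12.1% of all pairs, and 21 of the 37 passed the minimum. In *C. lepadiformis* FGFR2 was higher in winter buds than in stolons and 6 pairs were lower, whereas 1.02% and 3.23% of all pairs were, and 26 passed the minimum. The 6 were WNT5A, FZD3, SFRP1, SFRP3, LEF1 and JAG1, of which 5 are Wnt pathway genes, of 14 such pairs, 10 of which passed the minimum. Of 14 further Wnt pathway pairs, from the list of other genes described below, 1 (PRIC2) was lower and 0 higher. None of the 37 changed the same way in both species, near the 1.04% of all pairs that did. FGF9 was more than 2-fold higher in both, but its *C. lepadiformis* means were below the minimum of 5. TCF7L2/LEF1 was lower in both with equal stage sums, and with a median log2 ratio of 0 WNK3 lost its *P. zorritensis* call. Against pre-buds GDF8 was higher in spherules and BMPR2 and HES1-a lower, at 5.52% and 10.2% of all pairs. TGFB3 was higher in winter buds than in pre-buds, and WNT5A, SFRP1, SFRP3, BMP7, JAG1 and FGFR1/FGFR3 were lower, at 3.37% and 4.41% of all pairs. FGFR1/FGFR3 lost this call with equal stage sums. Again 0 of the 37 changed the same way in both species (BMP5/BMP7 with equal stage sums), compared with 1.22% of all pairs, and 19 and 22 passed the minimum, respectively. With equal stage sums the *P. zorritensis* split became 1 higher and 15 lower against stolons, and 0 higher and 9 lower against pre-buds, whereas all pairs became 2.44% higher and 32.4% lower, and 1.7% and 29.2%.

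**Figure D4:**
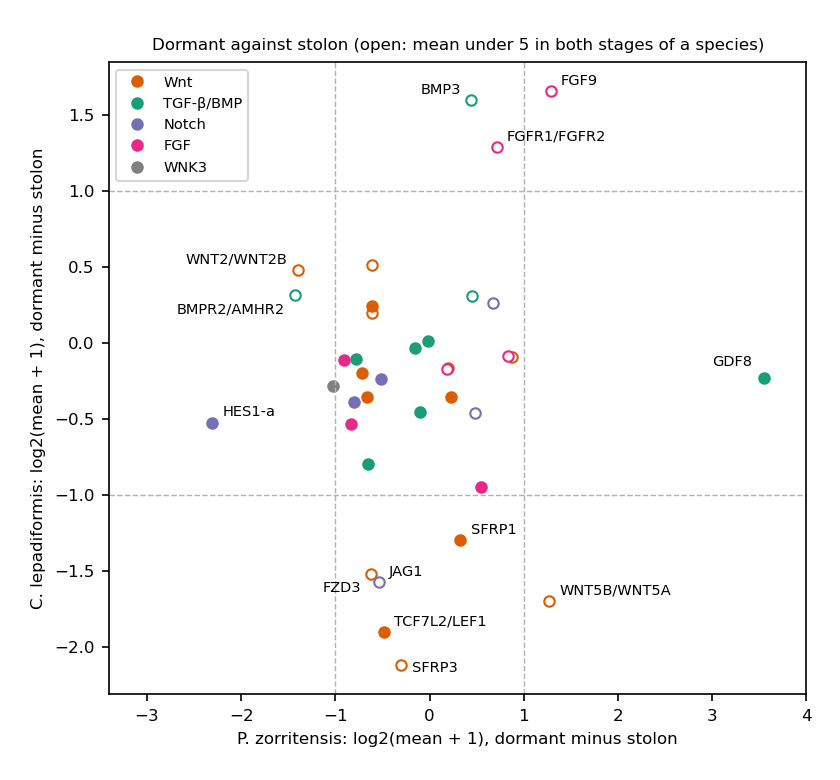
Difference of log2(mean + 1) between the dormant form and the stolon in *P. zorritensis* (horizontal axis) and *C. lepadiformis* (vertical axis), each symbol being 1 of the 37 pairs colored by pathway. Dashed lines mark 2-fold, and open symbols had a mean below 5 in both stages of at least 1 species; FGF9 lay beyond 2-fold in both species but its *C. lepadiformis* means of 4.8 and 0.835 were below the minimum.

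Members were also compared between the dormant and the germinating form. In *P. zorritensis* BMPR2 rose and GDF8 and FGF9 fell, at 9.7% and 3.87% of all pairs, with 18 of the 37 above the minimum. In *C. lepadiformis* FGFR3/FGFR1 rose and 0 pairs fell, at 3.96% and 4.5% of all pairs, with 20 above the minimum. No member changed the same way in both species, compared with 0.859% of all pairs. GDF8 fell in both with equal stage sums. It also did so with isoforms summed, at 32.9 in winter buds and 15.6 in germinating tissue of *C. lepadiformis*. The direction of these counts depended on scaling. With equal stage sums 4 pairs rose (BMPR2, SMAD3, SMAD4 and HES1-a) and GDF8 fell in *P. zorritensis*, as 22.8% and 1.2% of all pairs did, and 0 rose and 8 fell in *C. lepadiformis*, as 0.972% and 21.9% of all pairs did. Rescaling shifted the values of germinating tissue relative to the dormant form by 0.59 and by -0.66 on the log2 scale, respectively.

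Pre-buds, like the dormant form, had more members lower than higher relative to zooids. In *P. zorritensis* 11 of the 37 pairs were lower in pre-buds than in zooids and 0 higher, compared with 19.2% and 8.32% of all pairs, and 27 passed the minimum. In *C. lepadiformis* 14 were lower and 3 higher, compared with 21.7% and 8.91%, and 33 passed the minimum. The 3 that were higher were the FGF receptor pairs FGFR1/FGFR2, FGFR1/FGFR3 and FGFR3/FGFR1, at 4.02-fold, 4.29-fold and 3.61-fold. These 3 passed the minimum through the pre-bud alone. Of the members lower in pre-buds, SFRP1 and NOTCH1 in *P. zorritensis* had a pre-bud mean of at least 5. In *C. lepadiformis* BMP4, NOTCH1 and HES1-a did. The other lower members passed the minimum through the zooid alone and could only be called lower. FZD3, FZD4, LRP6, SFRP2, BMP3, BMP4, DLL1/DLL4 and NOTCH1 were lower in both species, that is 8 of the 37 compared with 13% of all pairs. Of these, LRP6 lost its *C. lepadiformis* call when isoforms were summed, at a log2 difference of -0.97. When stages were scaled to a median log2 ratio of 0, NOTCH1 lost its *P. zorritensis* call at -0.97 and SFRP2 at -2.39 with means below the minimum of 5. A pseudocount of 5 or a minimum of 10 each left 3 of the 8. Pre-buds were also compared with stolons. GDF8 was 5.68-fold higher in pre-buds than in stolons and 0 pairs were lower in *P. zorritensis* (5.4% and 3.57% of all pairs), whereas 0 were higher and LEF1 and TGFB3 were lower in *C. lepadiformis* (2.01% and 4.23%). No member changed the same way in both species between these stages, compared with 0.633% of all pairs.

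Other genes of the 4 pathways were taken from a list of 204 names, of which 43 were found in 44 pairs. In *P. zorritensis* 19 of the 44 were lower and 1 higher in spherules than in zooids, compared with 26.8% and 10.4% of all pairs. In *C. lepadiformis* 4 were lower and 2 higher in winter buds, compared with 24.7% and 9.4% of all pairs. KREM1, a receptor of the Wnt antagonist Dickkopf, averaged 18.3 in zooids, 50.7 in pre-buds, 53.9 in stolons, 36.9 in spherules and 64.2 in germinating tissue. In *C. lepadiformis* KREM1 averaged 0.242 in zooids, 17.1 in pre-buds, 17.2 in stolons, 28.5 in winter buds and 79.2 in germinating tissue, so that its zooid mean was the lowest in both species. In *P. zorritensis* the KREM1 mean of spherules with equal stage sums, 23.5, was below that of zooids, 26.6. RSPO2, a secreted enhancer of Wnt signaling, averaged 4.4 in zooids, 8.33 in pre-buds, 6.8 in stolons, 0.726 in spherules and 2.42 in germinating tissue. Its *C. lepadiformis* means were 3.48 in zooids, 5.88 in pre-buds, 5.27 in stolons, 4.31 in winter buds and 2.98 in germinating tissue. TWSG1, a secreted BMP modulator, averaged 18.5 in zooids, 0.386 in pre-buds, 1.33 in stolons, 1.14 in spherules and 1.92 in germinating tissue. In *C. lepadiformis* TWSG1 averaged 23.2 in zooids, 27.0 in pre-buds, 34.3 in stolons, 29.5 in winter buds and 38.0 in germinating tissue, without the zooid peak seen in *P. zorritensis*. LFNG/MFNG, a Fringe glycosyltransferase that modifies Notch, averaged 11.0 in zooids, 0.04 in pre-buds, 0.022 in stolons, 0.763 in spherules and 0.498 in germinating tissue. The *C. lepadiformis* partner MFNG averaged 50.6 in zooids, 0.018 in pre-buds, 0.013 in stolons, 0 in winter buds and 0.169 in germinating tissue. It was near 0 outside the zooid in both species, as DLL1/DLL4 was. DLK2, a Delta-like protein, averaged 5.92 in zooids, 0.178 in pre-buds, 0.235 in stolons, 0.856 in spherules and 1.27 in germinating tissue. In *C. lepadiformis* the DLK2 pair averaged 9.5 in zooids, 3.13 in pre-buds, 2.23 in stolons, 2.36 in winter buds and 1.18 in germinating tissue. FGRL1, an FGF receptor without a kinase domain, averaged 13.8 in zooids, 2.97 in pre-buds, 1.34 in stolons, 4.65 in spherules and 2.98 in germinating tissue. Its *C. lepadiformis* means were 21.7 in zooids, 8.27 in pre-buds, 12.2 in stolons, 11.8 in winter buds and 9.43 in germinating tissue. SPY2, a Sprouty feedback inhibitor of receptor tyrosine kinases, averaged 12.2 in zooids, 3.28 in pre-buds, 3.4 in stolons, 1.3 in spherules and 3.72 in germinating tissue. In *C. lepadiformis* SPY2 averaged 16.3 in zooids, 9.54 in pre-buds, 8.02 in stolons, 7.05 in winter buds and 4.84 in germinating tissue. FGRL1 and SPY2 were highest in zooids of both species. A further pair of wide range, TLL2/CSMD3, carried names of different proteins in the 2 species. It averaged 10.6 in zooids, 7.33 in pre-buds, 36.1 in stolons, 1.47 in spherules and 7.51 in germinating tissue. In *C. lepadiformis* it averaged 135 in zooids, 1335 in pre-buds, 2294 in stolons, 1602 in winter buds and 4101 in germinating tissue.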

How the data were processed

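RNA-seq data of 5 asexual stages of *P. zorritensis* and *C. lepadiformis* were analysed. Per the methods of the study, reads were trimmed, cleared of ribosomal RNA, assembled with Trinity from all stages pooled, filtered for chordate and low-expression transcripts, and quantified with Kallisto on the assembly; samples were split between 2 sequencing lanes, which the stage means do not show. The authors deposited an expression signal for each transcript, TPM scaled by TMM factors and averaged over the replicates of a stage. These are not counts, and the depth of single samples is unknown. A deposited table of 4424 ortholog pairs, which holds pairs that the authors called in some stage, gave names and transcript identifiers; its 4 columns of the authors' voom calls (up or down by stage) were not used.

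The 37 members were matched by name. Members and gene lists were chosen with earlier results of these data known. Stages were compared on log2(mean + 1), and 2-fold with a minimum of 5 in the higher stage counted as changed, set beside the same share over all pairs; with 1 mean per stage there is no test and no error. Every member is named, with all 10 stage means for ligands, receptors, FGF9 and the up to 6 members of widest range per pathway; of the other pathway genes the 2 of widest range per pathway are named. Alternatives were pseudocount, minimum, scaling and summed isoforms. Python 3.11.15, pandas 2.3.3, numpy 2.4.6 and matplotlib 3.10.9 were used, and the script was tested on simulated data. No reference sequences were used here.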

Additional observations from a re-analysis of the deposited data

How the results depend on the processing

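Of 142 counts recomputed under the alternatives, 110 stayed within 1.5 times the reported count and 32 did not; of 92 single calls 0 reversed, and 38 were lost with a pseudocount of 5, 27 with a minimum of 10, and 7 each with equal stage sums, a median log2 ratio of 0 and summed isoforms. A pseudocount of 5 left 8 changed members for *P. zorritensis* dormant against zooid, 2 against stolon and 5 for pre-bud against zooid, and in *C. lepadiformis* 13 for dormant against zooid, 3 against pre-bud, 0 for germinating against dormant and 0 for pre-bud against stolon; the members changed the same way in both species became 5 for dormant and 3 for pre-bud against zooid. A pseudocount of 0.1 gave 4 for *C. lepadiformis* pre-bud against stolon. A minimum of 10 left 8 and 5 in *P. zorritensis* dormant and pre-bud against zooid, 11 in *C. lepadiformis* pre-bud against zooid, 5 and 3 shared between species, and 4 members with the same highest stage. With no minimum *P. zorritensis* dormant against pre-bud gave 5, *C. lepadiformis* germinating against dormant 2, and 1 member (FGF9) changed the same way for dormant against stolon. Equal stage sums gave 30, 16, 9 and 5 in *P. zorritensis* for dormant against zooid, stolon and pre-bud and germinating against dormant, 8 and 4 in *C. lepadiformis* for germinating against dormant and pre-bud against stolon, and 17, 1, 1 and 1 shared members for dormant against zooid, stolon and pre-bud and germinating against dormant. A median log2 ratio of 0 gave 1 for *C. lepadiformis* pre-bud against stolon (LEF1 was lost), and isoforms summed per gene gave 2 for *C. lepadiformis* germinating against dormant and 1 shared (GDF8). Leaving out WNK3, an alternative chosen after seeing the data, kept the counts within 1.5 times. No paired analysis was possible because the files hold means over replicates, and for the same reason no replicate could be left out.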

Other observations

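KCP/BMPER, a pair of BMP-binding secreted proteins that the name match did not take in, averaged 7.94 in zooids, 4.36 in pre-buds, 15.9 in stolons, 3.15 in spherules and 3.73 in germinating tissue of *P. zorritensis*. In *C. lepadiformis* it averaged 4.87 in zooids, 2.21 in pre-buds, 1.62 in stolons, 0.419 in winter buds and 1.64 in germinating tissue. The dormant form was thus the lowest stage of KCP/BMPER in both species.

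Of the 37 members, 10 in each species had other isoforms of the same assembled gene. Summing them left the highest stage of 8 of these 10 in *P. zorritensis* and of 10 of 10 in *C. lepadiformis* as it was for the single transcript. In *P. zorritensis* WNT2 moved from the pre-bud to the zooid, with summed means of 4.43 and 4.90, and FGFR1/FGFR3 moved from the zooid to the stolon, with summed means of 26.7 and 36.9.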
